A study of Mus musculus with 9 samples.

Results

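The 3 liver tumors carrying an added Snail construct (S7HP+Snail tumors 13, 14 and 15) were compared with the other 6 tumors of the series, LHP tumors 2, 3 and 6 and S7HP tumors 9, 11 and 12. Of 24421 gene symbols, 14215 had a log2 value of 4 or more in at least 3 of the 9 tumors and were kept. A gene was taken as high or low only with Snail when it differed from LHP, from S7HP and from the mean of these groups in the same direction, and when all 3 S7HP+Snail values lay above or below all 6 others. A total of 51 genes met these conditions, 20 high and 31 low. The high genes included Col9a1, Rbm24, Enpp2, Pi16 and Igfbp5, and the low genes included Fam19a5, Npy, Sox11, Igsf11, Pkp2, Npdc1 and Nmt2.

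All 9 tumors came from the liver of C57BL/6 mice at 11 weeks. The deposited column names tie LHP to a Luc construct, S7HP to Smad7 and S7HP+Snail to Smad7 together with Snail. The labels do not expand H and P. In the published transposon model that uses these letters they stand for activated HRAS and a short hairpin against p53, and the plasmids are delivered to hepatocytes by hydrodynamic tail vein injection. If the letters mean the same here, all 3 groups, the LHP controls included, carry both, which the files do not show. Whether each tumor is from a mouse of its own is not in the labels, so p-values speak only of the scatter among these tumors. Values are log2(normalized count + 1) from 3′ end sequencing, which reads each transcript near its polyadenylated end.

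Snail, encoded by Snai1, is a zinc finger transcription factor that binds E-box motifs and represses genes of cell junctions and epithelial identity, E-cadherin (Cdh1) above all. It acts in epithelial-mesenchymal transition (EMT), in which cells lose junctions and gain a motile, matrix-producing state. TGF-β induces Snail through receptor-activated Smad proteins, and Smad7 is the inhibitory Smad that blocks this signal at the receptor.

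Snai1 (GRCm38 chr2:167538195-167542814) was read at 9.93, 11.16 and 10.99 in LHP, at 6.17, 6.34 and 6.92 in S7HP and at 8.53, 7.31 and 8.47 in S7HP+Snail. The S7HP+Snail tumors thus lay between the other groups, above every S7HP tumor and below every LHP tumor. The difference from the other 6 was -0.48 ± 0.37 (SE; limma, Benjamini-Hochberg adjusted p = 0.565). Against S7HP it was 1.63 ± 0.43, which did not pass the threshold of 0.05 (adjusted p = 0.085 in limma with Benjamini-Hochberg adjustment), and against LHP Snai1 fell by 2.59 ± 0.43 (adjusted p = 0.00931 by the same test). Smad7 was at 10.23, 10.50 and 9.49 in LHP, 6.46, 6.81 and 6.28 in S7HP and 7.31, 6.77 and 8.0 in S7HP+Snail. A 3′ read counts a construct only where the construct carries that end of the gene. The labels do not state this, so neither gene checks the group labels.

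The S7HP+Snail tumors were less alike than the tumors of the other groups, with correlations across the kept genes of 0.864 to 0.9, against 0.939 to 0.945 within LHP and 0.923 to 0.936 within S7HP. Relative depth, estimated from the steps between the lowest values, was 1.51, 1.96 and 0.886 in S7HP+Snail tumors 13, 14 and 15 and 0.565 to 1.04 in the other 6. About 3 reads gave a log2 value of 1.22 to 2.64, depending on the tumor. Hepatocyte genes were present throughout, with albumin (Alb) between 12.98 and 17.32 in the 9 tumors. The Schwann cell factor Sox10 and the B cell factor Pax5 were listed at 0 in all 9.

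Against the mean of LHP and S7HP, 76 genes were called higher (0.535% of those kept) and 103 lower (0.725%), with 2291 genes at an unadjusted p under 0.05. Against LHP alone the calls were 476 higher (3.35%) and 550 lower (3.87%), and against S7HP alone 143 higher (1.01%) and 184 lower (1.29%). These 3 comparisons share the S7HP+Snail tumors. Of the 179 genes called against the mean, 58 overlapped with at least 1 of the other 6 tumors, and 10 lay between the groups, above one and below the other. All 3 S7HP+Snail values lay above the other 6 in 302 genes (2.12%) and below them in 393 (2.76%). The full rule left 20 high genes (0.141%) and 31 low genes (0.218%). LHP and S7HP themselves differed in 2702 genes (19% of those kept) and in 7 of the 51.

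**Figure D1:**
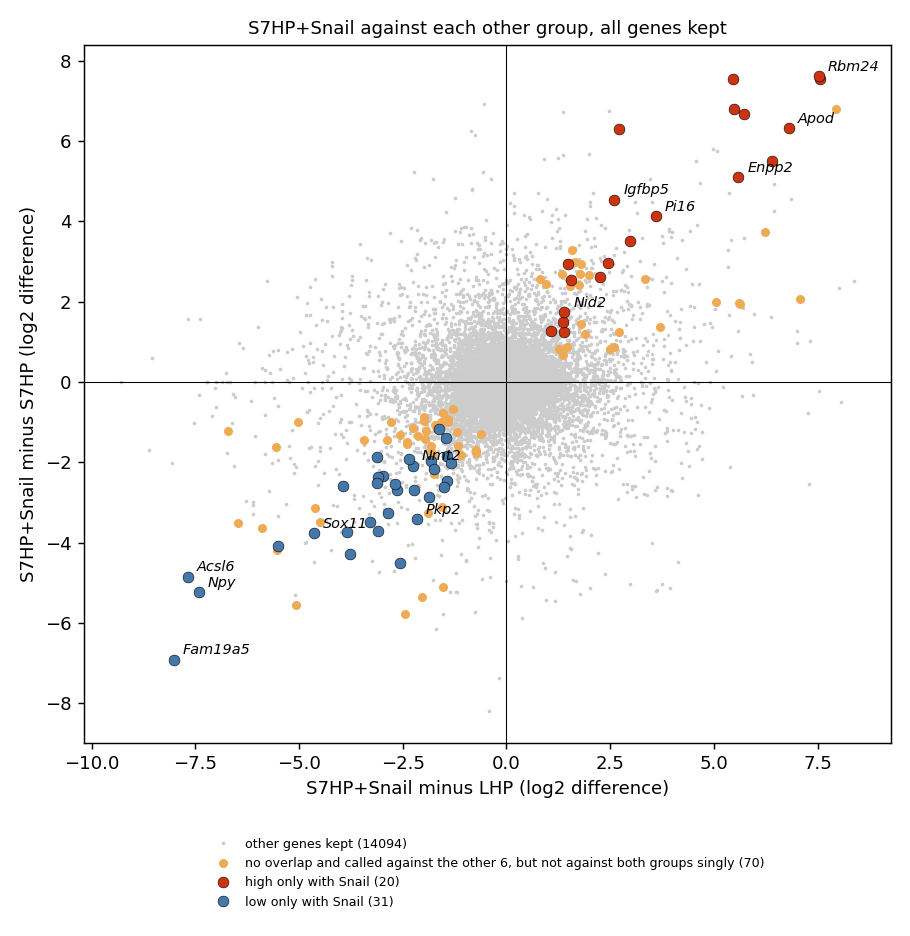
Each point is 1 of the 14215 genes kept, with the log2 difference of S7HP+Snail from LHP on the horizontal axis and from S7HP on the vertical axis; red and blue points are the 20 genes high and the 31 genes low only with Snail. Orange points are the 70 genes that did not overlap and were called against the other 6 but not against both groups singly.

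Among the 20 high genes the smaller of the differences from LHP and from S7HP ran from 1.08 to 7.55, with a median of 2.84. Among the 31 low genes its size ran from 1.18 to 6.92, with a median of 2.37, and here it is a fall. At the edge of the rule, Slc38a1 and Adam10 were just inside, with the largest of their 3 adjusted p at 0.0498 and 0.0478 (limma, Benjamini-Hochberg), and Itga3 and Ramp2 just outside at 0.0504 and 0.0511. The text gives values for the 12 genes in each direction with the largest smaller difference and a mean of at least 6 in their higher side. Other members of the 51 are given more briefly, and were named after their values were seen.

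Of the 20 high genes, 8 had fewer than 3 of the other 6 tumors at 4 or more and so were kept only with the help of the S7HP+Snail tumors in which they are high: Apod, Col9a1, Foxl2os, Gna14, Mdga2, Rbm24, Wfdc15b and Wnt6. Of the 31 low genes, 9 had no S7HP+Snail tumor at 4 or more and were kept through the other tumors alone: Acsl6, Atp6v0e2, Fam19a5, Fgd3, Npy, Nrxn3, Slc7a4, Tmem117 and Tmem163. The 8 high genes could not have been kept without S7HP+Snail values of 4 or more. The 9 low genes would have been kept at any S7HP+Snail value, but only because the other tumors were at 4 or more. In both cases the filter used the side in which the gene is high. Their values are therefore given as a description, and their tests are not used as support. Over all genes kept, 481 and 278 were in these positions.

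Col9a1 (chr1:24177610-24252684 on GRCm38), a chain of the cartilage collagen IX, was listed at 0 in all 6 other tumors and at 7.79, 8.65 and 6.21 in S7HP+Snail tumors 13, 14 and 15. Enpp2 (chr15:54838901-54952892, minus strand) encodes autotaxin, the secreted enzyme that makes lysophosphatidic acid. It was at 7.83, 9.59 and 8.80 in LHP, 11.03, 8.74 and 7.90 in S7HP and 12.90, 14.85 and 15.22 in S7HP+Snail. All S7HP+Snail values lay above the highest other tumor, S7HP tumor 9, as the rule requires. The gene rose by 5.34 ± 0.73 (SE, adjusted p = 0.016, limma with Benjamini-Hochberg).

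Pi16, a secreted peptidase inhibitor known from a fibroblast population, was at 4.70, 5.18 and 5.86 in LHP, 4.20, 4.60 and 5.38 in S7HP and 10.05, 8.27 and 8.22 in S7HP+Snail. The rise was 3.86 ± 0.50, and the other 6 tumors spanned less than the step between them and the S7HP+Snail tumors. Igfbp5, which binds insulin-like growth factors in the matrix, was at 8.27, 7.54 and 7.86 in LHP, 6.93, 4.50 and 6.46 in S7HP and 10.50, 10.30 and 10.69 in S7HP+Snail. It rose by 3.57 ± 0.47, with an SD of 0.19 over the 3 S7HP+Snail tumors. The rise was 2.60 against LHP and 4.54 against S7HP. Pi16 and Igfbp5 both had an adjusted p of 0.0137 (limma, Benjamini-Hochberg). Igfbp5 met the rule in 4 of the 9 fits with 1 tumor left out. It was not called with LHP and S7HP as 1 group (adjusted p = 0.152 by the same test).

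Apod, a secreted lipocalin that carries small lipids, lay between 0 and 3.56 in the other 6 tumors (median 2.98) and at 7.49, 12.01 and 7.77 in S7HP+Snail. Wfdc15b, a small secreted WAP-domain protein, was at 0 to 3.97 in the other 6 and at 7.63, 6.96 and 5.86 in S7HP+Snail. The Wnt ligand Wnt6 was at 0 to 2.44 and at 5.77, 9.96 and 5.04. In Apod and Wnt6 tumor 14 stood well above tumors 13 and 15, and the group SD was 2.53 and 2.66. Nid2, a nidogen of basement membranes, rose by 1.56 ± 0.31, a call that was lost in 13 of 16 alternative settings. It was at 6.38 to 7.35 in the other 6 and at 8.13, 9.15 and 8.36 in S7HP+Snail.

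Among intracellular and membrane proteins, Rbm24 (chr13:46418434-46431095), an RNA-binding splicing factor of heart and skeletal muscle, was at 0, 0 and 1.22 in LHP, 1.0, 0 and 0 in S7HP and 7.06, 9.54 and 7.22 in S7HP+Snail. Its values in the other 6 tumors lay at or under the level of 3 reads. The difference was 7.57 ± 0.81 (SE). Gna14, the α subunit of a G protein of the Gq class, was at 0 to 3.19 in the other 6 and at 7.17, 8.56 and 7.21 in S7HP+Snail. The magnesium channel Trpm6 was at 3.04 to 5.39 and at 8.78, 6.91 and 7.24. By the rule, neither gene overlapped between S7HP+Snail and the other 6. Mdga2, a cell surface protein that binds neuroligins, was at 1.22, 2.87 and 2.15 in LHP, listed at 0 in the 3 S7HP tumors and at 7.10, 10.25 and 5.27 in S7HP+Snail.

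Foxl2os, the transcript opposite the ovarian factor Foxl2, was at 2.94, 3.74 and 4.09 in LHP, listed at 0 in S7HP and at 6.04, 6.19 and 6.66 in S7HP+Snail. Foxl2 itself was also listed at 0 in S7HP and read at 6.70, 5.74 and 7.72 in S7HP+Snail, against 4.50, 5.86 and 5.71 in LHP. Whether counting used strand is not stated, so reads of the pair cannot be told apart. The other 7 high genes had smaller differences of 1.17 to 2.70 from the other 6. Among them were the homeobox factor Pbx3, the membrane proteases Adam10 and Cpd, and Cox6b2, the testis form of a cytochrome c oxidase subunit. Pbx3 was at 8.07 to 9.78 in the other 6 and at 10.42, 11.19 and 11.60 in S7HP+Snail, and Adam10 at 10.02 to 10.82 and at 11.83, 12.05 and 11.31.

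**Figure D2:**
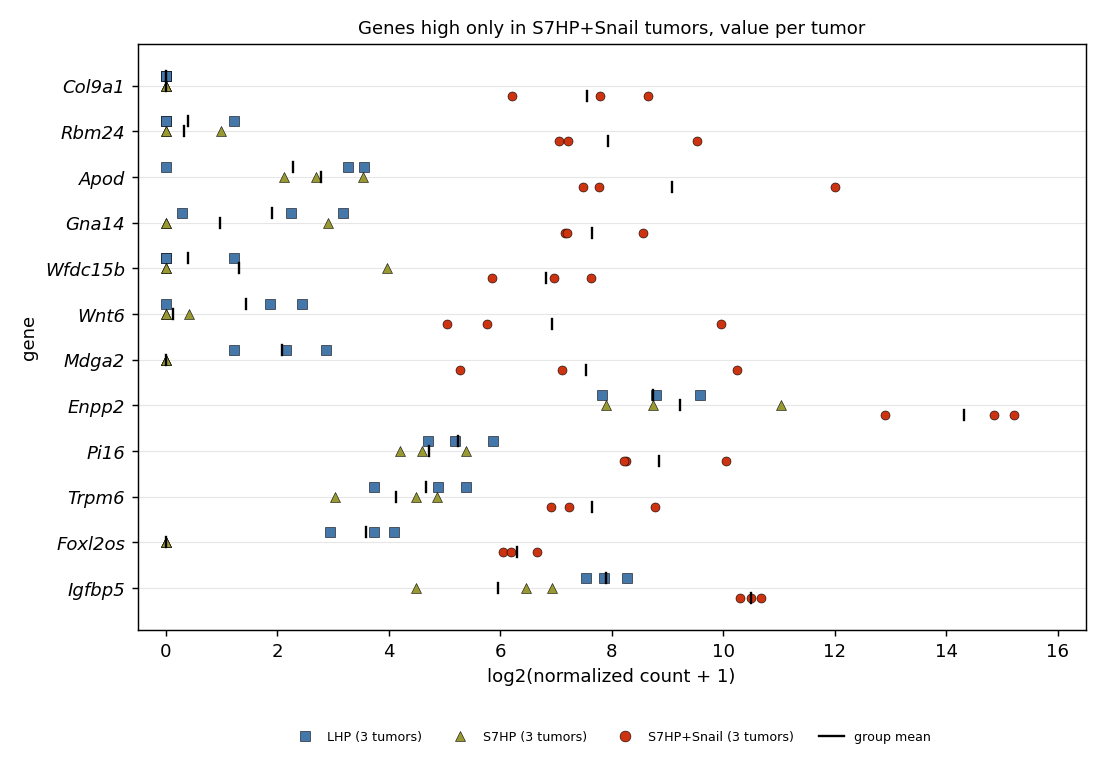
Log2(normalized count + 1) per tumor for the 12 named genes high only with Snail, with squares for LHP, triangles for S7HP, circles for S7HP+Snail (3 tumors each) and a bar at each group mean. By the rule that chose the genes, the 3 circles lie to the right of all squares and triangles. Col9a1 is at 0 in the other 6 tumors, while Igfbp5 and Enpp2 are well expressed in them.

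The tumor with the highest value among the 20 high genes was tumor 14 in 10 genes, tumor 15 in 7 and tumor 13 in 3. Without tumor 14, which also had the greatest estimated depth, 28 of the 51 genes were still found by the rule, 9 of them high and 19 low. Stellate cell and fibroblast genes, some of which make matrix, summed to 17678 to 24449 normalized counts in S7HP+Snail, above the 8091 to 13399 of S7HP and below the 44743 to 59785 of LHP. None of the 17 kept was called against the other 6 (median -0.43), a count that so few calls over all genes would also give, and Gfap was at 0 in all 3 S7HP+Snail tumors. The part of these cells in the high genes was not tested. In bulk tumors, more cells of a type and more RNA per cell cannot be told apart.

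Among the low genes, Fam19a5 (chr15:87544299-87759364), a secreted chemokine-like protein of the nervous system, was at 7.89, 8.96 and 8.73 in LHP, 5.68, 8.43 and 8.18 in S7HP and 0, 1.53 and 0 in S7HP+Snail. It was thus listed at 0 in tumors 13 and 15 and near the level of 3 reads in tumor 14. The difference was -7.47 ± 0.67 (SE). Npy (chr6:49822710-49829507), which encodes neuropeptide Y, was at 8.04, 11.01 and 10.80 in LHP, 7.14, 7.62 and 8.55 in S7HP and 2.81, 2.44 and 2.35 in S7HP+Snail. The difference was -6.33 ± 0.63, and the lowest other tumor, S7HP tumor 9, was 4.33 log2 units above tumor 13.

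Sox11, a transcription factor of embryonic neurons, was at 11.86, 11.72 and 12.07 in LHP, 10.98, 11.78 and 10.24 in S7HP and 8.66, 7.52 and 5.51 in S7HP+Snail. It fell by 4.21 ± 0.59 and was still clearly read in all 3. Nefm, the medium neurofilament chain, lay at 6.59 to 8.94 in the other 6 and at 3.86, 4.24 and 5.24 in S7HP+Snail. Its neighbour Nefl overlaps it in the annotation and was at 4.05, 2.19 and 7.02 in S7HP+Snail, where tumor 15 overlapped with the other groups, so their reads could be shared. The synaptic adhesion gene Nrxn3 and the reelin receptor Lrp8 fell by 2.66 and 2.50.

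Acsl6, a long-chain acyl-CoA synthetase best known from brain, was at 9.22, 7.88 and 8.30 in LHP, 4.37, 7.05 and 5.48 in S7HP and 2.35, 0 and 0 in S7HP+Snail. Kcnab1, a β subunit of potassium channels, lay at 9.16 to 10.71 in the other 6 and at 5.72, 4.20 and 7.51 with Snail. Of 12 kept neural and Schwann cell markers 1 was called, Nefm (lower), with a median difference of -0.59 from the other 6, -0.97 from LHP and 0.21 from S7HP. The summed level of the list was 757 to 3167 normalized counts in S7HP+Snail, 1173 to 1500 in S7HP and 8299 to 11063 in LHP. The part of such cells in the low genes was not tested.

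Pkp2 and Igsf11, also low with Snail, encode proteins of cell adhesion. Pkp2 (chr16:16213318-16272712), a plakophilin of desmosomes, was at 8.19, 7.79 and 7.76 in LHP, 9.43, 9.16 and 8.93 in S7HP and 6.25, 5.47 and 5.55 in S7HP+Snail. It fell by 2.78 ± 0.26 (SE; adjusted p = 0.00395, limma with Benjamini-Hochberg). Igsf11 (chr16:38892671-39027159), an immunoglobulin-type adhesion protein, was at 6.85, 7.10 and 6.19 in LHP, 6.69, 7.21 and 7.45 in S7HP and 4.05, 4.20 and 3.31 in S7HP+Snail. It fell by 3.07 ± 0.37 (adjusted p = 0.0107 by the same test). LHP and S7HP overlapped with each other in Igsf11, and both were clear of S7HP+Snail, as the rule requires.

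Nmt2 (chr2:3284212-3328877), which attaches myristate to proteins, had the smallest error of the low genes. It was at 12.39, 12.01 and 12.09 in LHP, 11.80, 12.05 and 12.14 in S7HP and 10.13, 9.84 and 9.76 in S7HP+Snail, a fall of 2.17 ± 0.18 (SE; adjusted p = 0.00395, limma with Benjamini-Hochberg). Npdc1 (chr2:25399351-25409494), a neural proliferation and differentiation gene, was at 8.03, 7.64 and 7.80, at 8.51, 7.97 and 8.36 and at 5.70, 5.43 and 5.66 in the same order of groups. It fell by 2.46 ± 0.24 (adjusted p = 0.00443 by the same test). Npdc1 and Entpd2 overlap on the same strand, and Entpd2 was at 5.33, 4.87 and 4.55 in S7HP+Snail, within the 4.21 to 7.37 of the other 6.

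The other named low genes were of varied function. Nt5e, the surface enzyme that makes adenosine from AMP, lay at 7.26 to 9.93 in the other 6 and at 5.45, 5.86 and 5.36 with Snail. Pomgnt2, which extends the sugar chain of dystroglycan, lay at 9.30 to 10.48 and at 7.90, 8.03 and 6.25. Fgd3, an exchange factor for Cdc42, lay at 5.24 to 7.16 and at 3.69, 1.53 and 2.35. The proton pump subunit Atp6v0e2 lay at 5.03 to 8.32 and at 3.50, 3.94 and 2.35, and Nbeal2, a gene of platelet granules, at 6.11 to 7.51 and at 4.38, 2.92 and 4.49. As the rule requires, the S7HP+Snail tumors were clear of the other 6 in each of these genes. The falls ran from 2.61 ± 0.42 in Pomgnt2 to 3.78 ± 0.62 in Fgd3.

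The remaining low genes fell by 1.40 (Dusp7, a phosphatase of ERK) to 4.80 (Tmem117). They included the glutamine transporter Slc38a1, the lipid transporters Abca2 and Abca3 and the GATA cofactor Zfpm1. Abca3 lies opposite D330041H03Rik, which fell with it, and without strand their reads cannot be told apart. The pseudogene Hmga2-ps1 lay at 6.90 to 7.97 in the other 6 and at 4.49, 3.75 and 5.58 with Snail. Its parent Hmga2 was at 10.75, 7.19 and 12.59 in S7HP+Snail, overlapping with the 9.84 to 13.53 of the other 6, and reads could be shared between them.

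**Figure D3:**
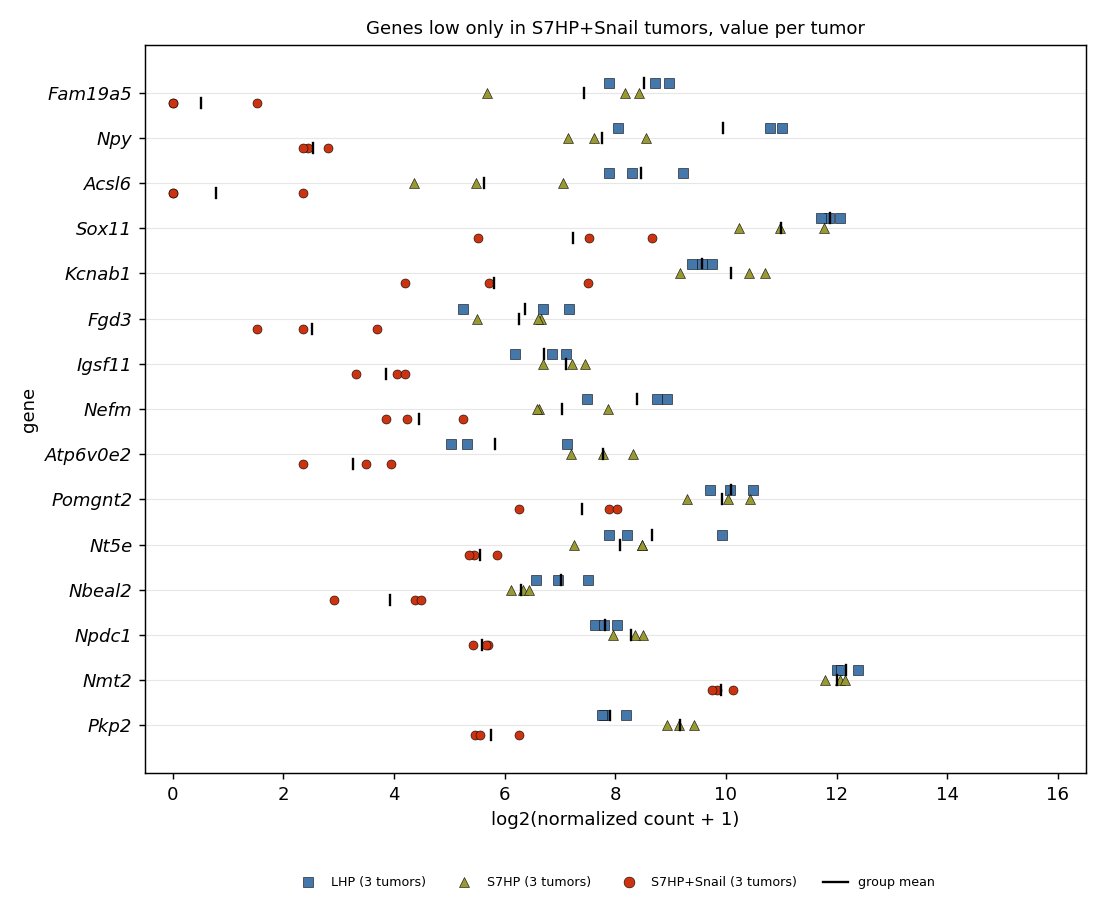
Log2(normalized count + 1) per tumor for the 12 named genes low only with Snail and for Pkp2, Npdc1 and Nmt2, with squares for LHP, triangles for S7HP, circles for S7HP+Snail (3 tumors each) and a bar at each group mean. By the rule that chose the genes, all circles lie to the left of the squares and triangles. Fam19a5 reaches 0 in 2 S7HP+Snail tumors, while Nmt2 is still at 9.76 or more.

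Not all of the 51 rest equally on all 9 tumors. When each tumor was left out in turn, 7 genes met the rule in all 9 fits: Col9a1 and Rbm24 among the high genes and Fam19a5, Igsf11, Npdc1, Pkp2 and Nmt2 among the low ones. Col9a1, Rbm24 and Fam19a5 are among those kept only with the help of the side in which they are high. So are Npy, Acsl6 and Gna14, and the fits of all these genes are given as a description, not as support. Pi16 and Npy were lost only without S7HP tumor 11, where the largest of the 3 adjusted p (limma, Benjamini-Hochberg) reached 0.0517 in Pi16 and 0.0508 in Npy. Acsl6 was lost without S7HP tumor 11 or 12 and rose to 0.0887 by the same measure. Enpp2 left the set (up to 0.0876) in the fits lacking LHP tumor 2, LHP tumor 6, S7HP tumor 11 and S7HP tumor 12. Gna14 left it (up to 0.0711) in those lacking LHP tumor 3, LHP tumor 6, S7HP tumor 11 and S7HP+Snail tumor 14.

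The other genes of the 12 named in each direction met the rule in 1 to 4 of the 9 fits. Over the whole set, 2 genes (9530091C08Rik and Nid2) met it in none and 16 in 1. With 1 tumor left out, the number of the 51 still found was 13, 14 and 11 without LHP tumors 2, 3 and 6 and was 26, 11 and 15 without S7HP tumors 9, 11 and 12. It was 24, 28 and 30 without S7HP+Snail tumors 13, 14 and 15.

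When LHP and S7HP were treated as 1 group of 6 tumors, their own difference entered the error and 9 genes were called (limma, Benjamini-Hochberg), with 1343 at an unadjusted p under 0.05. All 9 are among the 51. Col9a1, Rbm24, Enpp2 and Pi16 were higher, and Nmt2, Fam19a5, Npdc1, Igsf11 and Npy were lower. The adjusted p by this test was 0.00688 for Nmt2, 0.0125 for Npdc1, 0.0325 for Igsf11, 0.0421 for Pi16 and 0.0443 for Enpp2. The other 4 are among the genes kept only with the help of the side in which they are high.

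Snail binds the E-box CAGGTG, so promoters of the 51 genes were searched for these letters and for the reverse complement CACCTG, from 250 bases before to 50 after each RefSeq start site on GRCm38.p6. Of 13688 promoters of kept genes, 2480 held the motif (18.1%). It was found in 5 of 19 promoters of high genes (26.3%) and 13 of 33 of low genes (39.4%). Counted by gene, the shares were 29.4% of 17 high genes and 45.8% of 24 low genes, against 21% of 10698 kept genes. These shares describe the sequences and do not show binding, and genes with several start sites had more chances to match. D330041H03Rik, Enpp2, Fam19a5, Hmga2-ps1, Nefm, Nid2, Pbx3, Pkp2, Slc38a1 and Slc7a4 had no entry.

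The 250 bases upstream of the start site are shown for the 6 genes that are either among the 12 named in their direction or among the 9 called against the 6 tumors as 1 group, and that hold the motif there. They are given 5′ to 3′ on the gene's strand, with the motif in capitals, so that its position in these 6 genes can be read.
Gna14, chr19:16435417-16435666, plus strand: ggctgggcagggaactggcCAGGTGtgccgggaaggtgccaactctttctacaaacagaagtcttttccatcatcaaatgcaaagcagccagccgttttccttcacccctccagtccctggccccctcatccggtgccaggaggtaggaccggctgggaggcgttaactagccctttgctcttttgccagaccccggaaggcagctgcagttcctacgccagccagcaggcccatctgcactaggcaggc
Rbm24, chr13:46418050-46418299, plus strand: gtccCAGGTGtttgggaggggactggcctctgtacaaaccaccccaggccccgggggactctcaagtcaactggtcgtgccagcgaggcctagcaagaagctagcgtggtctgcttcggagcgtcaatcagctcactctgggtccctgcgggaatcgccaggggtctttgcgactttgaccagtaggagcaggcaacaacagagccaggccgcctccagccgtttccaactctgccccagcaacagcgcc
Trpm6, chr19:18749480-18749729, plus strand: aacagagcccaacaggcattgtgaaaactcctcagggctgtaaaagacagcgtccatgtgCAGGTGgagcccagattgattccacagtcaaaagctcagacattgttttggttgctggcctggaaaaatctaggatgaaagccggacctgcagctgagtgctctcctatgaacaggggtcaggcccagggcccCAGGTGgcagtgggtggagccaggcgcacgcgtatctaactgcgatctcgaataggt
Atp6v0e2, chr6:48537319-48537568, plus strand: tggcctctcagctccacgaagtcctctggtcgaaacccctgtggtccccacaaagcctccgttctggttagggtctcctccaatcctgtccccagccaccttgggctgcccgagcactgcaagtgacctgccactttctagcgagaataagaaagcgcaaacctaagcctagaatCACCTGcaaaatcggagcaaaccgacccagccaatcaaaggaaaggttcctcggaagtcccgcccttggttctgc
Igsf11, chr16:38902095-38902344, plus strand: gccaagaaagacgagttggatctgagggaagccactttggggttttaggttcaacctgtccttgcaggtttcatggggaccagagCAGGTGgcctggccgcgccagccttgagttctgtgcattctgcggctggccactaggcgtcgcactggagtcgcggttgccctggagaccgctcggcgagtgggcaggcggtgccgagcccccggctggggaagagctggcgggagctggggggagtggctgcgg
Npdc1, chr2:25402800-25403049, plus strand: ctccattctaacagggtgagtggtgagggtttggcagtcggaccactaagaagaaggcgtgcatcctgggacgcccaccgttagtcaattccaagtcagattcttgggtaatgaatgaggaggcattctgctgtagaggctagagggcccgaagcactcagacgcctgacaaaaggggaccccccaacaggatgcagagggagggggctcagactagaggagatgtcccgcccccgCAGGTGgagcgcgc
Counted from the start site, the motif of the high genes shown began at base -231 in Gna14, at -246 in Rbm24 and at -190 and -57 in Trpm6. In the low genes shown it began at -75 in Atp6v0e2, at -165 in Igsf11 and at -14 in Npdc1. Genes not shown widen both ranges. Among them were the high genes Gcc1 (-132) and Prrg1 (-196). The low ones included Lrp8 (-215 and -81), Dusp7 (-200), Tmem163 (-183), Abca2 (-85), Abca3 (-18) and Tmem117 (41). For Igsf11 and Npdc1 the RefSeq start site lies inside the span of the GENCODE gene, so it is not the most upstream start. Of the 7 genes that met the rule with any 1 tumor left out, Rbm24, Igsf11 and Npdc1 held the motif, Col9a1 and Nmt2 did not, and Fam19a5 and Pkp2 had no entry.

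Lists of genes for known Snail functions and liver cell types were read against the same comparison. Over all 14215 genes the median difference from the other 6 was -0.01. Of 28 epithelial junction genes, 2 were called lower, Pkp2 and the claudin Cldn6, beside 0.725% of all genes. None was called higher, and the median difference was -0.69. That median joins opposite directions: against LHP it was 0.24 and against S7HP it was -1.21. Against LHP 4 of the genes were called higher and 2 lower, beside 3.35% and 3.87% of all genes. Cldn6 was at 7.29, 2.87 and 5.09 in LHP, 5.08, 3.90 and 7.67 in S7HP and listed at 0 in all 3 S7HP+Snail tumors (adjusted p = 0.0487, limma with Benjamini-Hochberg). It missed the threshold against S7HP alone, at 0.0513 by the same test, and its call against the other 6 was lost in 13 of 15 alternative settings (up to 0.162).

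Cdh1 (chr8:106603351-106670246), the classical Snail target, was at 11.96, 11.08 and 11.11 in LHP, 14.26, 14.18 and 14.95 in S7HP and 14.17, 10.54 and 11.28 in S7HP+Snail. Tumor 13 was at the level of S7HP and tumors 14 and 15 at that of LHP. The difference from the other 6 was -0.93 ± 0.67 (adjusted p = 0.531, limma with Benjamini-Hochberg). The value rested on single tumors: it was -2.01 without tumor 13 (adjusted p = 0.0319 by the same test), with the remaining values still overlapping with LHP, and -0.20 without tumor 14 (adjusted p = 0.93).

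Several junction genes were low against S7HP and not against LHP. Those called lower than S7HP were Ocln, Cgn, Crb3, Pard6b, Lsr and Pkp2, 6 of 28 beside 1.29% of all genes. Of these, Pkp2 was also called lower than LHP (adjusted p = 0.00505, limma with Benjamini-Hochberg) and is among the 51. The first 5 are named after their values were seen. Occludin (Ocln) was at 8.02, 7.31 and 7.90 in S7HP, 5.09, 4.16 and 4.49 in S7HP+Snail and 3.56, 3.44 and 2.15 in LHP. Crb3, a polarity protein, was at 7.90, 7.72 and 8.41 in S7HP, 5.97, 3.97 and 4.11 in S7HP+Snail and 3.97, 4.60 and 4.60 in LHP. Genes such as Ocln and Crb3 were low in LHP as well and therefore not among the 51. Tjp1, a scaffold of tight junctions, went the other way, at 11.56, 13.08 and 11.93 in S7HP+Snail and 10.09 to 11.52 in the other 6, and its adjusted p against S7HP was 0.265.

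**Figure D4:**
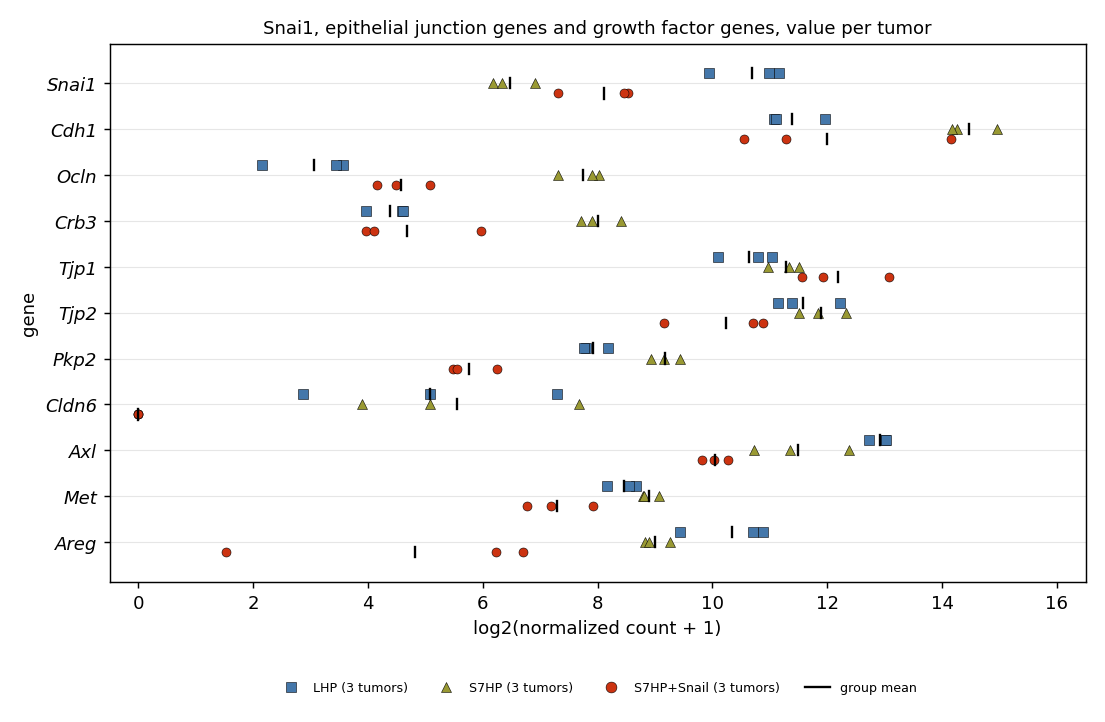
Log2(normalized count + 1) per tumor for Snai1, 7 epithelial junction genes, Axl, Met and Areg, with squares for LHP, triangles for S7HP, circles for S7HP+Snail (3 tumors each) and a bar at each group mean. Pkp2 and Cldn6 are below both other groups in all 3 S7HP+Snail tumors, whereas Cdh1, Ocln and Crb3 overlap with LHP or lie between the groups.

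Calls against the other 6 were rare over all genes (0.535% higher and 0.725% lower), so a count of 0 or 1 in a list of this size is not a result about the list. Against LHP 3.87% of all genes were called lower, and against S7HP 1.01% were called higher. None of 15 kept EMT factors was called against the other 6 (median 0.04), and 4 were called lower than LHP. Their median was -0.715 against LHP and 0.44 against S7HP. Of 20 mesenchymal genes 1 was called, Axl, and it was lower (median -0.38). The mesenchymal median was -1.15 against LHP, with 6 genes called lower, and 0.52 against S7HP, with 1 called higher. Keratins and epithelial regulators had 0 calls of 14 (median -0.59), and contractile genes 0 of 16 (median -0.56). The keratin list had a median of 0.10 against LHP and -1.27 against S7HP. The contractile list had a median of -1.13 against LHP, with 4 genes called lower, and 0.42 against S7HP. Of 25 matrix genes only Nid2 was called, with a median of -0.03. That median too joins opposite directions, with 8 matrix genes called lower than LHP (median -1.09) and 5 higher than S7HP (median 0.99). Among 21 TGF-β targets Tgfbi, a secreted matrix protein, was called higher, with 10.58, 10.78 and 10.56 in S7HP+Snail and 7.36 to 10.03 in the other 6. It was not called against LHP (adjusted p = 0.134, limma with Benjamini-Hochberg).

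Growth factor receptors and ligands gave 3 lower calls of 24 and no higher one (median -0.43), beside 0.725% lower over all genes. The list went both ways, with 10 members above 0 and 14 below. All 3 S7HP+Snail values lay above the other 6 in 3 members and below them in 4, beside 2.12% and 2.76% of all genes. The list median was -0.76 against LHP and -0.17 against S7HP. The calls of Areg and Met were lost in 13 and 12 of 16 alternative settings (adjusted p up to 0.164 and 0.166), and that of Axl in 4. Axl, a receptor tyrosine kinase of mesenchymal cells, was at 13.01, 12.72 and 13.02 in LHP, 10.72, 11.36 and 12.37 in S7HP and 9.82, 10.27 and 10.03 in S7HP+Snail, a fall of 2.16 ± 0.32. Met, the receptor of hepatocyte growth factor, was at 8.16 to 9.06 in the other 6 and at 7.92, 7.19 and 6.77. Areg, the EGF receptor ligand amphiregulin, was at 8.82 to 10.88 in the other 6 and at 6.22, 1.53 and 6.70. All 3 were outside the 51, since Axl and Areg missed the threshold against S7HP (adjusted p = 0.0787 and 0.0908, limma with Benjamini-Hochberg) and Met against LHP (0.0544).

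Interferon response genes gave 3 higher calls of 22, Ifi44, Isg15 and Irf7, beside 0.535% higher over all genes. These calls were lost in 1, 7 and 8 of 16 alternative settings. The median difference was 1.0, and 21 of 22 members were above 0, beside 6970 of all 14215 genes. Ifi44 was at 6.20, 5.99 and 6.82 in LHP, 7.48, 8.02 and 7.92 in S7HP and 9.17, 8.93 and 9.04 in S7HP+Snail. It rose by 1.97 ± 0.26 (adjusted p = 0.0137, limma with Benjamini-Hochberg). Against LHP 12 of the 22 were called higher, beside 3.35% of all genes, and the list median was 1.48. Against S7HP none was called and the list median was 0.25, so the interferon genes did not enter the 51. The chemokine Ccl7 was at 9.75, 8.23 and 10.48 in S7HP+Snail and at 6.23 to 7.94 in the other 6. Of 19 macrophage genes none was called, and their summed level was 9824 to 18451 normalized counts in S7HP+Snail, 7677 to 9501 in S7HP and 11912 to 17041 in LHP; the part of these cells was not tested.

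Fetal liver genes were called against the mean while overlapping with S7HP. H19, Igf2 and Gpc3, 3 of 12, were called higher than the mean of the other groups, beside 0.535% of all genes. The list median was 1.25. Against LHP it was 2.27, with 6 genes called higher beside 3.35% of all genes, and against S7HP it was 0.83, with 0 calls. H19 was at 9.52, 10.22 and 8.26 in LHP, 16.62, 14.51 and 15.03 in S7HP and 16.30, 16.75 and 15.99 in S7HP+Snail. The S7HP+Snail tumors overlapped with S7HP tumor 9 in H19, Igf2 and Gpc3. Jag1, called lower in the Notch list, likewise lay at 8.93, 9.10 and 9.58 in S7HP+Snail and 9.99, 8.89 and 9.22 in S7HP. Nr2f1, a nuclear receptor, overlapped with LHP, at 9.41 to 11.25 in S7HP+Snail, 9.53, 10.12 and 7.31 in LHP and 4.91, 4.50 and 4.50 in S7HP.

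Metabolic lists gave 1 call in all against the other 6. Glycolysis and hypoxia genes had a difference below 0 in 22 of 22 members, beside 7245 of all 14215 genes. Their median was -0.95, and none was called. Of 20 urea cycle and amino acid genes only Got1, the cytosolic aspartate aminotransferase, was called lower, at 9.47, 9.49 and 9.66 with Snail and 10.14 to 11.00 in the other 6. Lipid and cholesterol synthesis had 0 calls of 27 (median -0.42). Against LHP 6 of the 27 were called lower, beside 3.87% of all genes. All 3 S7HP+Snail values lay below the other 6 in 5 of them, beside 2.76%. Fatty acid oxidation had 0 calls of 20 (median 0.05), with medians of 0.48 against LHP and -0.46 against S7HP. The cell cycle had 0 calls of 30 (median -0.38) and p53 targets 0 of 21 (median -0.14). Of the cell cycle genes 27 were below 0 and 3 above, with a median of -0.58 against LHP and -0.21 against S7HP. In the Wnt list none of 27 was called (median 0.36), and Wnt6 is not a member of it.

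Cell type lists gave no other calls against the other 6. None of 24 hepatocyte genes was called (median -0.10), and none of 15 biliary, 9 mesothelial, 20 endothelial, 9 neutrophil, 14 T and NK cell, 4 B cell or 7 erythroid genes. Of the endothelial genes 16 were above 0 and 4 below, and 3 lay above the other 6 in all 3 tumors, beside 2.12% of all genes. The endothelial median was -0.20 against LHP and 1.11 against S7HP. All 7 erythroid genes were above 0, with a median of 1.46 against LHP and -0.27 against S7HP. The part of these cells was not tested. The hepatocyte median was 0.65 against LHP, with 4 genes called higher beside 3.35% of all genes. Against S7HP it was -0.88, with 0 calls. The 3 S7HP+Snail tumors differed widely among themselves in mesothelial genes, whose summed level was 11371, 589 and 3163 normalized counts in tumors 13, 14 and 15 against 1234 to 4117 in the other 6. Neutrophil genes summed to 3744, 7483 and 34287 in the same tumors against 2369 to 16451. In the remaining lists the calls were 2 of 15 insulin-like growth factor genes (Igf2 and Igfbp5, higher), 2 of 34 chemokines (Ccl7 and Cxcl5, higher), 1 of 28 nuclear receptors (Nr2f1, higher), 1 of 17 Notch genes (Jag1, lower), 1 of 33 axon guidance genes (Sema6a, higher), 0 of 18 homeobox genes and 0 of 16 genes of the RAS and p53 constructs with Snai1 and Smad7. Over all genes, 0.535% were called higher and 0.725% lower than the other 6. Only 4 of the 51 genes were on any of the 35 lists.

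**Figure D5:**
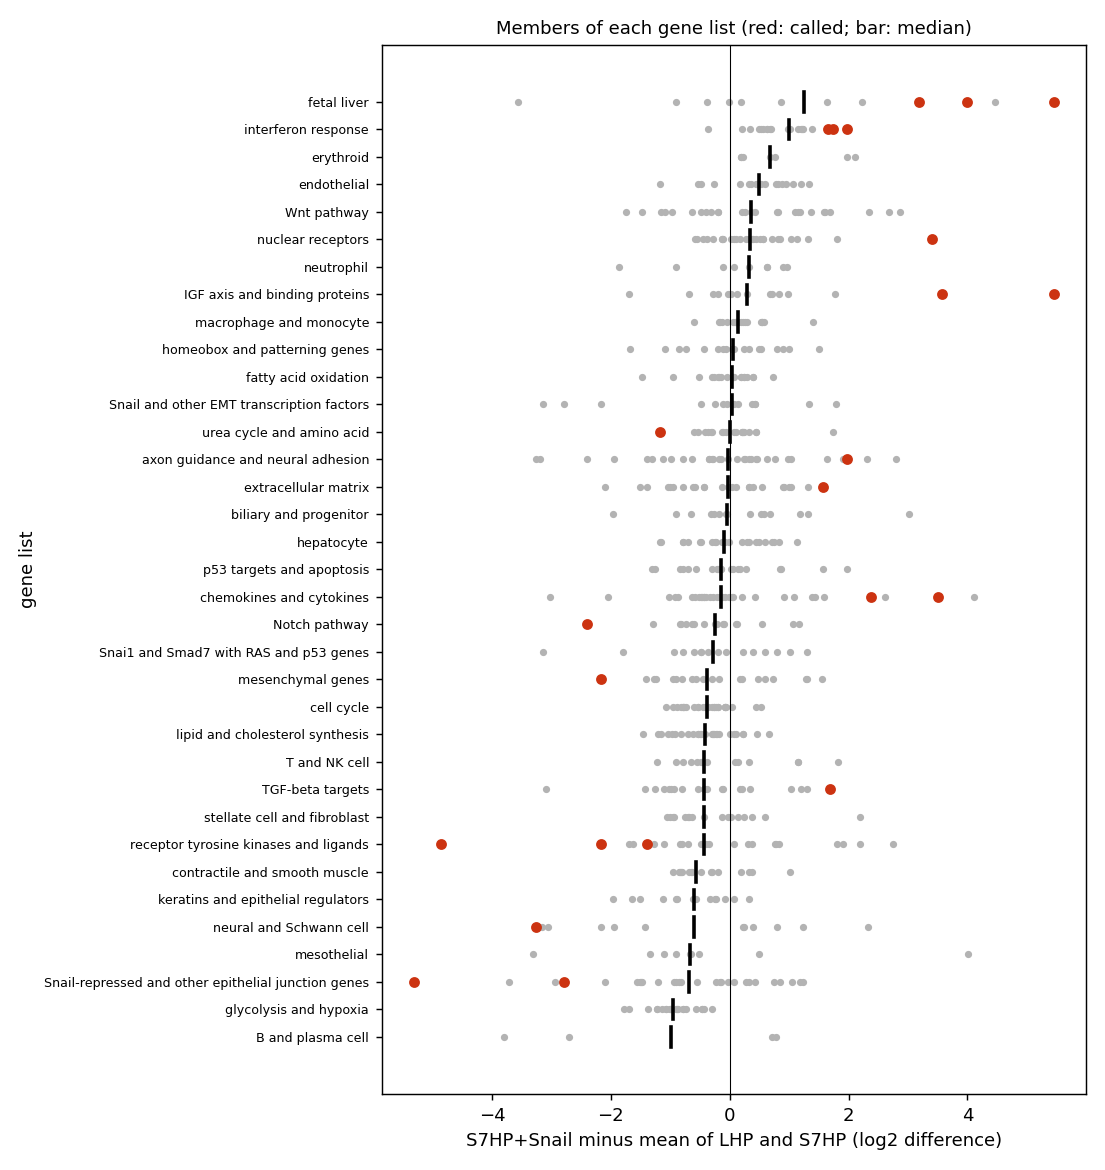
Difference of S7HP+Snail from the mean of LHP and S7HP (log2, horizontal axis) for every kept member of the 35 gene lists, with red points for genes called in limma and a black bar at each list's median. Called genes are few and scattered over lists, the fetal liver and interferon lists have the highest medians (1.25 and 1.0), and only Pkp2, Nid2, Igfbp5 and Nefm among the red points belong to the 51.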

How the data were processed

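Gene expression was measured by QuantSeq 3′ sequencing of 500 ng of Trizol-extracted RNA per tumor, per the labels' protocols. Bowtie2, edgeR and the build mm10 are named in the submitters' processing notes with no roles or versions, and which program counted the reads, on which gene models, was not given in the sources used here. The deposited files hold 1 log2 value per symbol for 24421 symbols, and the values themselves show log2 of a quantile-normalized count plus 1. The unlogged totals of the 9 files lie between 19910396 and 19911234, so library totals are not preserved. Depth was estimated from the steps between the lowest values, taken as successive read counts.

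Genes at 4 or more in at least 3 tumors (14215) were fitted in limma 3.58.1 (R 4.3.3) with 1 mean per group over all 9 tumors and eBayes with trend and robust variances. Calls rest on two-sided p-values with Benjamini-Hochberg adjustment over all genes kept and a threshold of 0.05. Differences are on the log2(normalized count + 1) scale and understate changes of low genes. The fit was also run on simulated data. LHP and S7HP had the same mean for each gene there, so that run does not test the rule where these groups differ. The comparison, the 35 gene lists (749 of 757 entries matched a symbol) and the rules were chosen with earlier results of these data known. Named genes are Snai1, Smad7 and Cdh1, then 12 high and 12 low genes of the 51 with the largest smaller difference from LHP and S7HP, a mean of at least 6 in the higher side and no predicted name. Up to 3 members per list called against the other 6 without overlap were added. Coordinates are from GENCODE mouse release M21 on GRCm38, where 96.1% of kept symbols matched 1 gene, and promoters are from RefSeq on GRCm38.p6. Alternatives were another variance model, filter, pseudocount and centring, library weights, other groups in the fit and each tumor left out. Figures were drawn with matplotlib 3.10.9 in Python 3.11.15.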

Additional observations from a re-analysis of the deposited data

How the results depend on the processing

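The 179 genes called against the mean of LHP and S7HP became 9 when LHP and S7HP were fitted as 1 group and 116 with library weights, and 29 to 185 with each tumor left out in turn. The calls against LHP (1026) became 293 to 1049 with a tumor left out and 682 when only the 6 tumors compared were fitted. Those against S7HP (327) became 63 to 451 and 120. The 51 genes high or low only with Snail became 9 with LHP and S7HP as 1 group and 11 to 87 with a tumor left out: 15, 16 and 11 without LHP tumors 2, 3 and 6, 34, 12 and 15 without S7HP tumors 9, 11 and 12, and 59, 49 and 87 without S7HP+Snail tumors 13, 14 and 15. Fewer samples were fitted in these, and any other cause was not tested. With no trend, no filter, a filter at 6, a pseudocount of 8, centring on library medians or library weights the rule found 50, 46, 41, 51, 50 and 41 genes, of which 41, 37, 39, 45, 50 and 37 were among the 51. None of the 40 named genes reversed its direction in any of these alternatives, and Cdh1 passed the threshold only without S7HP+Snail tumor 13. No paired analysis was possible because the 3 groups share no replicate numbers. Without library totals, counts and their intervals could not be recovered, and values near 0 rest on a few reads.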
